A study of Mus musculus with 4 samples.

Results

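The BCL2 family genes decide whether a cell enters the mitochondrial pathway of apoptosis, and 10 of them were examined here among 21938 annotated protein-coding genes. They are the guardians *Bcl2*, *Bcl2l1* and *Mcl1*, the effectors *Bax* and *Bak1*, and the BH3-only genes *Bcl2l11*, *Bbc3*, *Pmaip1*, *Bid* and *Bad*. They were chosen by name and not by their values. For each gene, the ATAC-seq peaks in the gene body and in 20 kb on each side of it were taken. These windows ranged from 44.4 kb at *Mcl1* to 216 kb at *Bcl2* and covered 734.3 kb in all. When the peaks of the 4 libraries were merged wherever they overlapped, 216 of 357570 regions lay in the windows.

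The guardian proteins hold the effectors BAX and BAK in check at the mitochondrial membrane. BH3-only proteins such as BIM, from *Bcl2l11*, PUMA, from *Bbc3*, and NOXA, from *Pmaip1*, bind the guardians and release the effectors, which then open the outer membrane. *Bax*, *Bbc3* and *Pmaip1* are known targets of p53, and small cell lung cancer is known for high levels of BCL2.

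The libraries came from SCLC metastasizing cells (SMC) and non-SMC of the *RP* mouse model, in which floxed *Rb1* and *Trp53* are deleted in the lung by Cre from an adenovirus with the CMV promoter. SMC are the cells with high NCAM and low or absent CD44, and non-SMC are those with low NCAM and high CD44, both sorted by FACS from lung tumors of mice of mixed background (C57Bl/6, Balb-c and S129) and grown as untreated lines. SMC line 1, SMC line 2, non-SMC line 1 and non-SMC line 2 gave 1 library each. The labels call SMC and non-SMC paired, and lines that share a number are taken here as a pair. Both types carry the *Rb1* and *Trp53* deletions, and the labels give neither the age of the mice nor the tumor behind a line.

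On the autosomes, X and Y, 91057 and 153954 peaks were kept for SMC lines 1 and 2, and 115837 and 128710 for non-SMC lines 1 and 2. Values of all lines are given in this order. The genome background recovered from the peak values was lowest in SMC line 1, with SMC line 2 at 3.37 times, non-SMC line 1 at 3.26 times and non-SMC line 2 at 1.40 times that level, so SMC line 1 was the shallowest library by this measure. Of 8 SMC marker promoters, peaks were listed at 7 and 8 for the SMC lines and at 5 for each non-SMC line, and *Chga* had one in the SMC lines only. Of 8 non-SMC marker promoters, 2 had one in SMC line 1 and 8 in each other line, so SMC line 2 did not differ from the non-SMC lines in this count. By percentile of the highest peak, SMC line 2 was below both non-SMC lines at *Cd44* (43.1 against 94.4 and 98.4), *Wwtr1*, *Yap1*, *Vim* and *Axl*. It was above both at *Areg* (95.4 against 88.0 and 66.7) and *Ccn2*, and between them at *Ccn1*. Of 8 promoters of immune, endothelial, stromal and lung epithelial genes, 3 had one in SMC line 1 and 4 in each other line, with 4, 5, 7 and 7 peaks in all. *Pecam1* had one in both non-SMC lines only, *Ptprc* in non-SMC line 1 only, *Sftpc* in SMC line 1 only and *Lyz2* in SMC line 2 only. *Cd68* lacked one in SMC line 1, *Cdh5* in non-SMC line 1 and *Scgb1a1* in every line. *Col1a1* had one in every line, with the highest at percentiles 29.0, 23.6, 70.5 and 86.8. The part of such cells in the results was not tested. The body of *Rb1* held 6, 2, 9 and 4 peaks and that of *Trp53* 1, 3, 2 and 1, and a peak list does not check a deletion.

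SMC-only regions had a peak in each of the SMC lines but in no non-SMC line, and non-SMC-only regions were the opposite. The sequences that follow are from 3 genes with strong non-SMC-only regions, and from the *Bcl2l1* introns, where regions of both patterns lie. Each holds 201 bases around the summit of the highest peak of a region, on the plus strand of mm10 (GRCm38). A label names the lines with a peak anywhere in the merged region, and these peaks need not all cover the bases shown. Capitals mark an AP-1 motif (TGAGTCA or TGACTCA), a TEAD motif (GGAATG), an E-box (CAGCTG), a RUNX motif (TGTGGT or TGCGGT) or a SOX motif (ACAAAG or ACAATG), each searched on both strands. No motif lies inside another. A match describes the letters and does not show that a factor was bound.
Bak1, non-SMC-only, chr17:27038374-27038574: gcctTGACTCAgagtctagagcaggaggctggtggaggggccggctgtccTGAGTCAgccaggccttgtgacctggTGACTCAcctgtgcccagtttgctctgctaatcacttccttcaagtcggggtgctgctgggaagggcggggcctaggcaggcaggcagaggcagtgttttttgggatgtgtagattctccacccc
Bid, non-SMC-only, chr6:120915506-120915706: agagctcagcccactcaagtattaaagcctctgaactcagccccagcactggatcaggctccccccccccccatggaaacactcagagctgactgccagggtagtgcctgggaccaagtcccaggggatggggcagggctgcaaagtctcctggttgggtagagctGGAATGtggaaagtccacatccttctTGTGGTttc
Bax, non-SMC-only, chr7:45460900-45461100: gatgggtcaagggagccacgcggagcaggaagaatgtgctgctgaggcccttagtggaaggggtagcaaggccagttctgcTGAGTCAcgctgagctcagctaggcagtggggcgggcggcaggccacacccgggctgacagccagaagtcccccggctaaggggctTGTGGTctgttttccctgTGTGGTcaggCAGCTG
Bcl2l1, SMC-only, chr2:152816641-152816841: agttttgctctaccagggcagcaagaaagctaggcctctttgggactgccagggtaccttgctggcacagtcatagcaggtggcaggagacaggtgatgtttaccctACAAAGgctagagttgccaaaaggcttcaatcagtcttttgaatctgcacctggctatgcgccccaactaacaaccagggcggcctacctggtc
Bcl2l1, peak in all 4 lines, first intron region, chr2:152804459-152804659: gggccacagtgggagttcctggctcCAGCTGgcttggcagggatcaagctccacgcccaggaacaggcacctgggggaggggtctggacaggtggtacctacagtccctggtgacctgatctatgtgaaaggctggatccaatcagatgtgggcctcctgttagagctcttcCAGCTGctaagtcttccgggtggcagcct
Bcl2l1, peak in all 4 lines, second intron region, chr2:152806108-152806308: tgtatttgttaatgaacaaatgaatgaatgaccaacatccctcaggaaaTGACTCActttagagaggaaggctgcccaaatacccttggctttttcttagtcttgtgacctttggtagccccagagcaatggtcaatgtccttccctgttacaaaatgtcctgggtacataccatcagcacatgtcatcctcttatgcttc

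The *Bak1* sequence held 3 AP-1 motifs. The *Bid* sequence held 1 TEAD and 1 RUNX motif, and the *Bax* sequence 1 AP-1 motif, 1 E-box and 2 RUNX motifs. The 3 *Bcl2l1* sequences, which were chosen after their values were seen, held 1 SOX motif, 2 E-boxes and 1 AP-1 motif. The bases shown for the first intron region lay under the peaks of the SMC lines but under no non-SMC peak. Those of the second lay under the peaks of both non-SMC lines and SMC line 1, and not under that of SMC line 2.

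The comparison of SMC with non-SMC asks where chromatin accessibility differed between the metastasizing and the non-metastasizing cells. Across the 10 genes, regions open in both non-SMC lines alone outnumbered those open in both SMC lines alone. Of the 216 regions, 26 (12.0%) were non-SMC-only and 10 (4.63%) were SMC-only. This order turned without SMC line 1 (72 SMC-only against 26 non-SMC-only), without SMC line 2 (34 against 31) and in pair 2 alone (78 against 54). It held in pair 1 alone (36 against 63), without non-SMC line 1 (11 against 54) and without non-SMC line 2 (12 against 53). With 1 line left out, its type needs a peak in 1 line and the other type in 2, so the counts are not on equal terms. The shares over all genes were not computed for these settings. In the windows of all protein-coding genes, 7.17% of regions were non-SMC-only and 4.28% SMC-only (7.33% and 4.37% over the whole genome), so the SMC-only share was near the background and the non-SMC-only share was above it. Another 20 regions (9.26%) had a peak in all 4 lines, against 4.89% in all gene windows and 3.81% over the genome. A single line held 141 regions, which divided into 24, 62, 27 and 28 over the lines. With 2 lines of each type the smallest two-sided p of an exact permutation test is 0.333, so no test was made between the types, and counts are read against all genes and against the spread between lines.

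Each of the 10 genes had at least 1 non-SMC-only region, as did 50.9% of all gene windows. SMC-only regions were found at 5 of the 10, *Bcl2l1*, *Bcl2l11*, *Mcl1*, *Bak1* and *Bbc3*, against 37.6% of all windows. The 10 windows were also richer in peaks of every pattern, with 29.4 regions per 100 kb against 19.4 over all gene windows. Per 100 kb, the BCL2 family windows held 3.54 non-SMC-only regions against 1.33 over all windows, and 1.36 SMC-only regions against 0.778. The guardians held 14 non-SMC-only and 5 SMC-only regions among 91 (15.4% and 5.49%). The effectors held 3 and 1 among 36 (8.33% and 2.78%), and the BH3-only genes 9 and 4 among 89 (10.1% and 4.49%). The plot of shares by role shows the guardians with the highest non-SMC-only bar, but these are counts of regions in 3, 2 and 5 genes and no test of the roles was made.

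**Figure D1:**
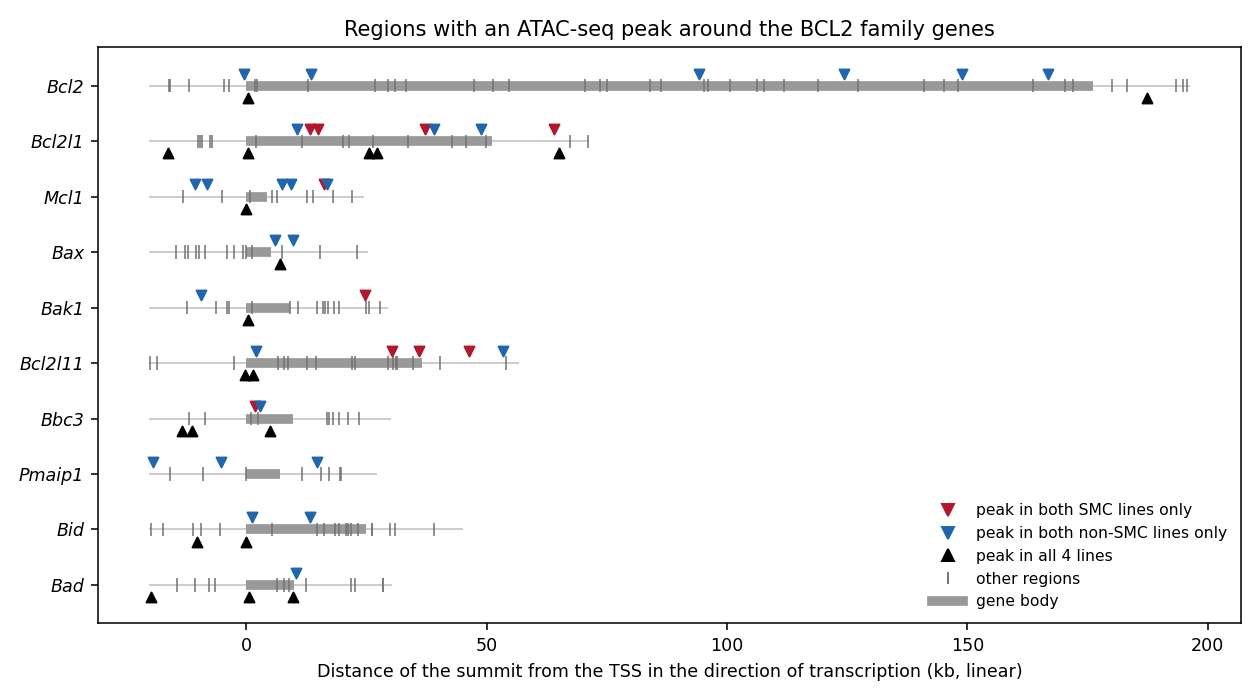
Regions with a peak around the 10 genes, by the distance of the summit from the transcription start site (TSS) in kb, with gene bodies as grey bars. Blue triangles mark the 26 non-SMC-only, red triangles the 10 SMC-only and black triangles the 20 regions of all 4 lines, and *Mcl1* has 5 blue triangles around a short gene body.

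**Figure D2:**
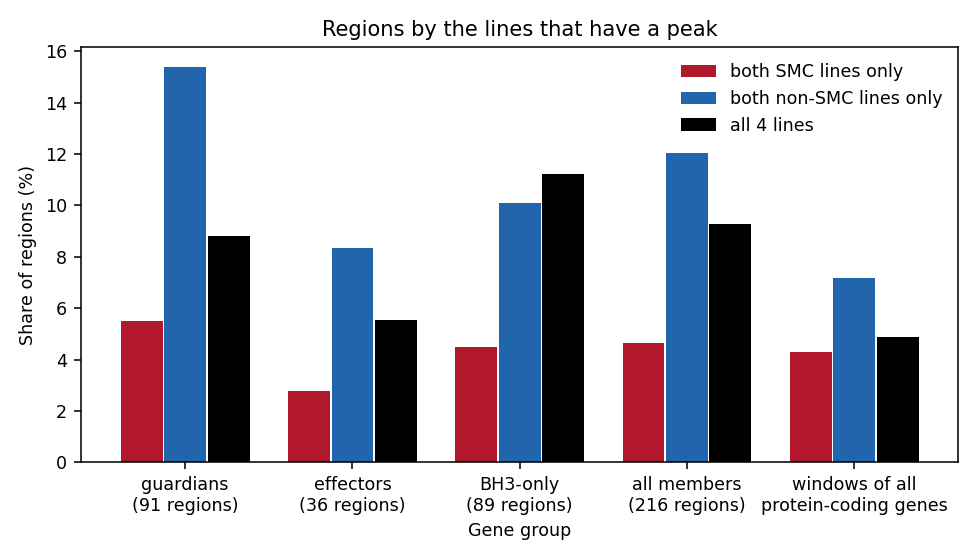
Share of regions in percent (y axis, from 0) with a peak in both SMC lines only, both non-SMC lines only or all 4 lines, for each role, all 10 genes and the windows of all protein-coding genes. The non-SMC-only share was 12.0% over the 10 genes and 7.17% over all gene windows.

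The total of peaks did not separate the types. The 10 windows held 60 and 113 peaks in the SMC lines and 87 and 88 in the non-SMC lines. SMC averaged 86.5 ± 37.5 (SD, n = 2) and non-SMC 87.5 ± 0.707, and the difference of -1 was smaller than the pooled SD between lines of 26.5. SMC line 1 was the lowest and SMC line 2 the highest, and the difference was -27 in pair 1 and 25 in pair 2. As a share of the list, the windows took 0.0659%, 0.0734%, 0.0751% and 0.0684% of peaks, a narrower spread than that of the counts.

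Strong peaks, meaning those with a -log10 q of 5 or more, gave another picture. They numbered 7 and 24 in the SMC lines and 41 and 32 in the non-SMC lines. SMC averaged 15.5 ± 12.0 (SD, n = 2) and non-SMC 36.5 ± 6.36, and the difference of -21 exceeded the pooled SD of 9.62. It was -34 in pair 1 and -8 in pair 2. The windows took 0.0536%, 0.0912%, 0.0932% and 0.127% of all such peaks in the lists. *Mcl1*, *Bcl2l11*, *Bbc3*, *Pmaip1* and *Bid*, 5 of the 10 genes, had fewer strong peaks in both SMC lines than in either non-SMC line, against 24.0% of all gene windows. None of the 10 had more in both SMC lines, against 3.26% of all windows. The q of a peak depends on the depth of its library, and the part of depth in the counts of strong peaks was not tested. When pileup and background were scaled to the background of SMC line 1, the counts of all peaks were 60, 41, 56 and 69, and the types overlapped.

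**Figure D3:**
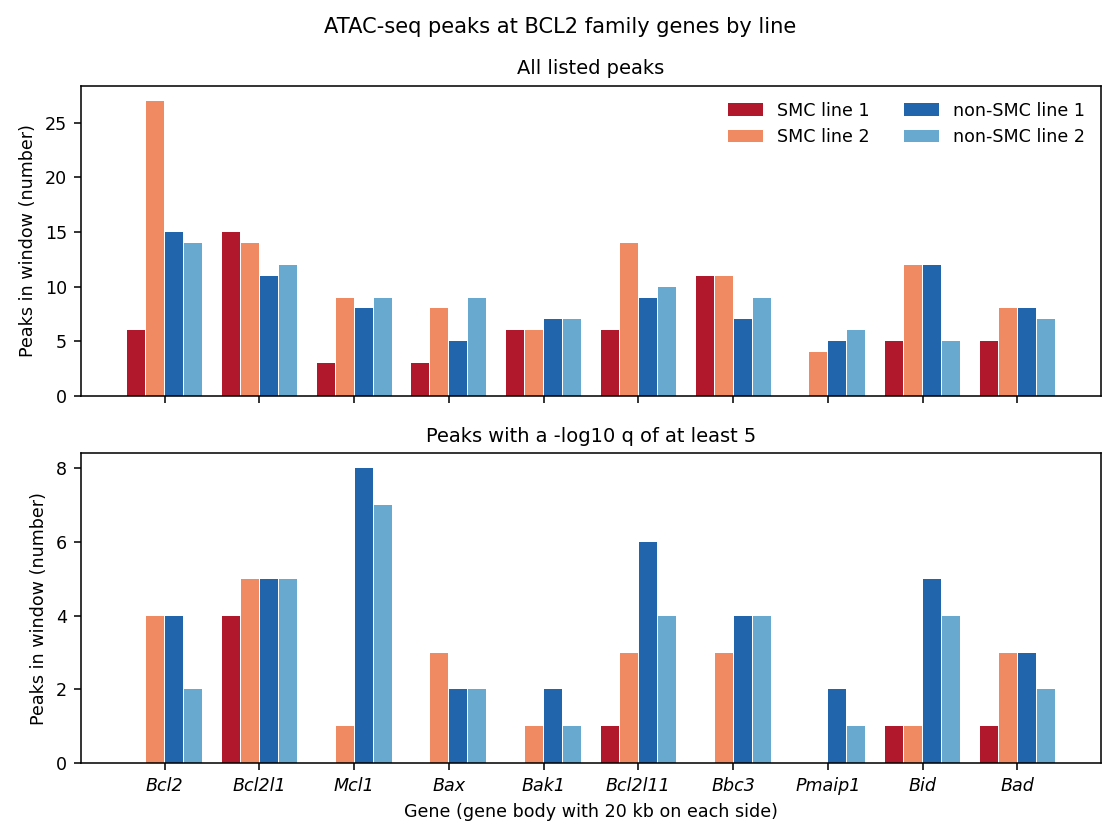
Number of peaks (y axes, from 0) in the window of each gene in the 4 lines, for all listed peaks (top) and for those whose -log10 q reached 5 (bottom). In the lower panel *Mcl1* has 8 and 7 peaks in the non-SMC lines and 0 and 1 in the SMC lines.

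Most promoters held a peak in all lines. A promoter is the 6 kb centred on the TSS, and 8 of the 10 genes had a promoter peak in all 4 lines, against 48.7% of all promoters. At *Bbc3*, counted among the 8, the highest peaks had summits 1782, 1763, 2813 and 910 bp downstream of the TSS. No merged region of the *Bbc3* promoter had a peak in all 4 lines. None of the 10 promoters lacked a peak in every line, as 19.2% of all promoters did. *Bax* and *Pmaip1* were the exceptions, with a promoter peak only in the lines numbered 2, and at *Bax* these peaks did not overlap between the lines. No promoter of the family was SMC-only or non-SMC-only, patterns held by 3.08% and 2.45% of all promoters. The number of genes with a promoter peak was 8, 10, 8 and 10, a difference of 0 between the means. Over all protein-coding genes, 62.2%, 69.3%, 64.6% and 64.9% of promoters had a peak. A peak lay over the TSS itself in 4 genes in SMC line 1 and in 6 in each other line. The share of all genes with such a peak was not computed. Since a library averages over many cells, fewer open cells and less open chromatin in each cell cannot be told apart.

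**Figure D4:**
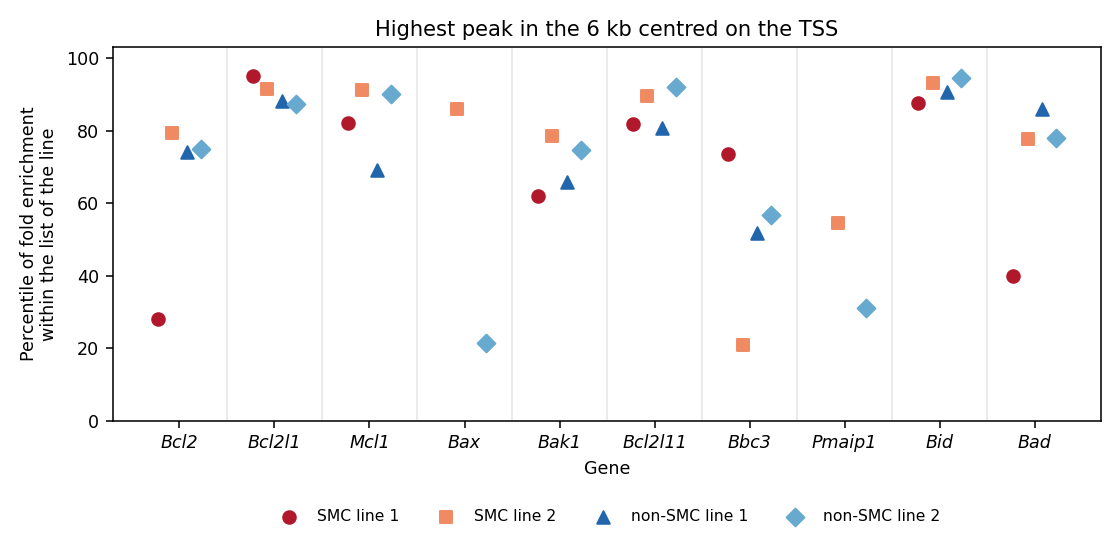
Percentile of fold enrichment, within the list of its own line, of the highest promoter peak of each gene, with 1 point for each line that has one. *Bcl2l1*, *Bcl2l11* and *Bid* lie above 80 in every line, and *Bax* and *Pmaip1* have 2 points each.

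*Mcl1*, a guardian whose protein is known for its rapid turnover, showed the densest non-SMC-only pattern of the 10 genes. The gene lies at chr3:95658788-95663176 on the plus strand, and its window held 3 and 9 peaks in the SMC lines and 8 and 9 in the non-SMC lines. Strong peaks numbered 0, 1, 8 and 7, and the types did not overlap in this count. Of 16 regions, 5 were non-SMC-only, 1 was SMC-only and 1 was open in all lines. All 5 non-SMC-only regions were strong in both non-SMC lines, whereas over the 10 genes this held for 12 of 26. The same share over all non-SMC-only regions of the genome was not computed. The *Mcl1* density of 11.3 non-SMC-only regions per 100 kb was above that of 99.9% of gene windows. By count, its 5 regions were more than in 94.7% of gene windows. With the gene body alone the count was 0, and with 5 kb on each side it was 2. Without SMC line 1, when an SMC-only region needs a peak in only 1 line, *Mcl1* had 5 regions of each pattern.

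A non-SMC-only region of *Mcl1*, chr3:95675399-95676069, lay 16845 bp downstream of the TSS, beyond the gene, with fold enrichments over local background of 8.54 and 6.21 in non-SMC lines 1 and 2. Another, chr3:95667595-95668386, lay 9296 bp downstream with 5.79 and 6.89. Neither SMC line listed a peak at either place. The SMC-only region of *Mcl1*, 16178 bp downstream at chr3:95674907-95675183, was weak, with fold enrichments of 3.48 and 2.76 in SMC lines 1 and 2. The promoter peak was open in every line, with fold enrichments of 5.26, 6.57, 5.32 and 7.54 at percentiles 82.2, 91.3, 69.2 and 90.1, so the types overlapped there. *Adamtsl4* is the other gene that overlaps this window.

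*Bcl2l1*, which encodes BCL-XL, was the gene with the most SMC-only regions when both SMC lines were required. The gene lies at chr2:152780668-152831728 on the minus strand, and its window held 15, 14, 11 and 12 peaks, more in both SMC lines than in either non-SMC line. This was also true of *Bbc3* and thus of 2 of the 10 genes, near the 13.1% of all windows. Of 28 regions, 4 were SMC-only, 3 non-SMC-only and 5 open in all lines. Fewer SMC-only regions were found in 96.5% of gene windows. The strongest, chr2:152816329-152817088, lay in an intron 14987 bp downstream of the TSS. Its fold enrichment was 5.44 in SMC line 1 and 4.57 in SMC line 2, at percentiles 83.3 and 82.1. Of the 10 SMC-only regions, this 1 was strong in both SMC lines, and the share over all SMC-only regions of the genome was not computed. The strongest non-SMC-only regions of the gene lay in introns 48889 bp downstream (chr2:152782494-152783085), with 8.59 and 5.16, and 10533 bp downstream (chr2:152820494-152821359), with 4.21 and 7.19.

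A neighbouring pair of merged intron regions in *Bcl2l1* had a peak in all 4 lines, but fold enrichment ran in opposite orders. At chr2:152804376-152805059 it was 8.08 and 9.70 in the SMC lines, with summits 27199 and 27169 bp downstream of the TSS. It was 3.58 and 3.89 in the non-SMC lines, with summits at 26777 and 26737 bp. No non-SMC peak covered the SMC summits, so these values belong to different places in 1 merged region. The percentiles were 94.5 and 97.1 against 46.6 and 65.9, so both SMC lines were above both non-SMC lines. At chr2:152805858-152806534, fold enrichment was 3.91 and 2.16 in the SMC lines, with summits 25676 and 25647 bp downstream. It was 13.7 in each non-SMC line, with summits at 25520 and 25557 bp. The percentiles were 64.6 and 1.04 against 96.9 and 99.1, the reverse order. The first sequence, which no non-SMC peak covers, holds 2 E-boxes and no AP-1 motif. The second, which the peak of SMC line 2 does not reach, holds 1 AP-1 motif and no E-box. This pair was picked after its values were seen. The promoter of *Bcl2l1* was among the strongest of the family, with fold enrichments of 8.34, 6.63, 9.32 and 6.76. The highest peak of the window in 3 lines lay 16223 bp upstream near the TSS of *Tpx2*, and cannot be given to *Bcl2l1* by position alone.

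**Figure D5:**
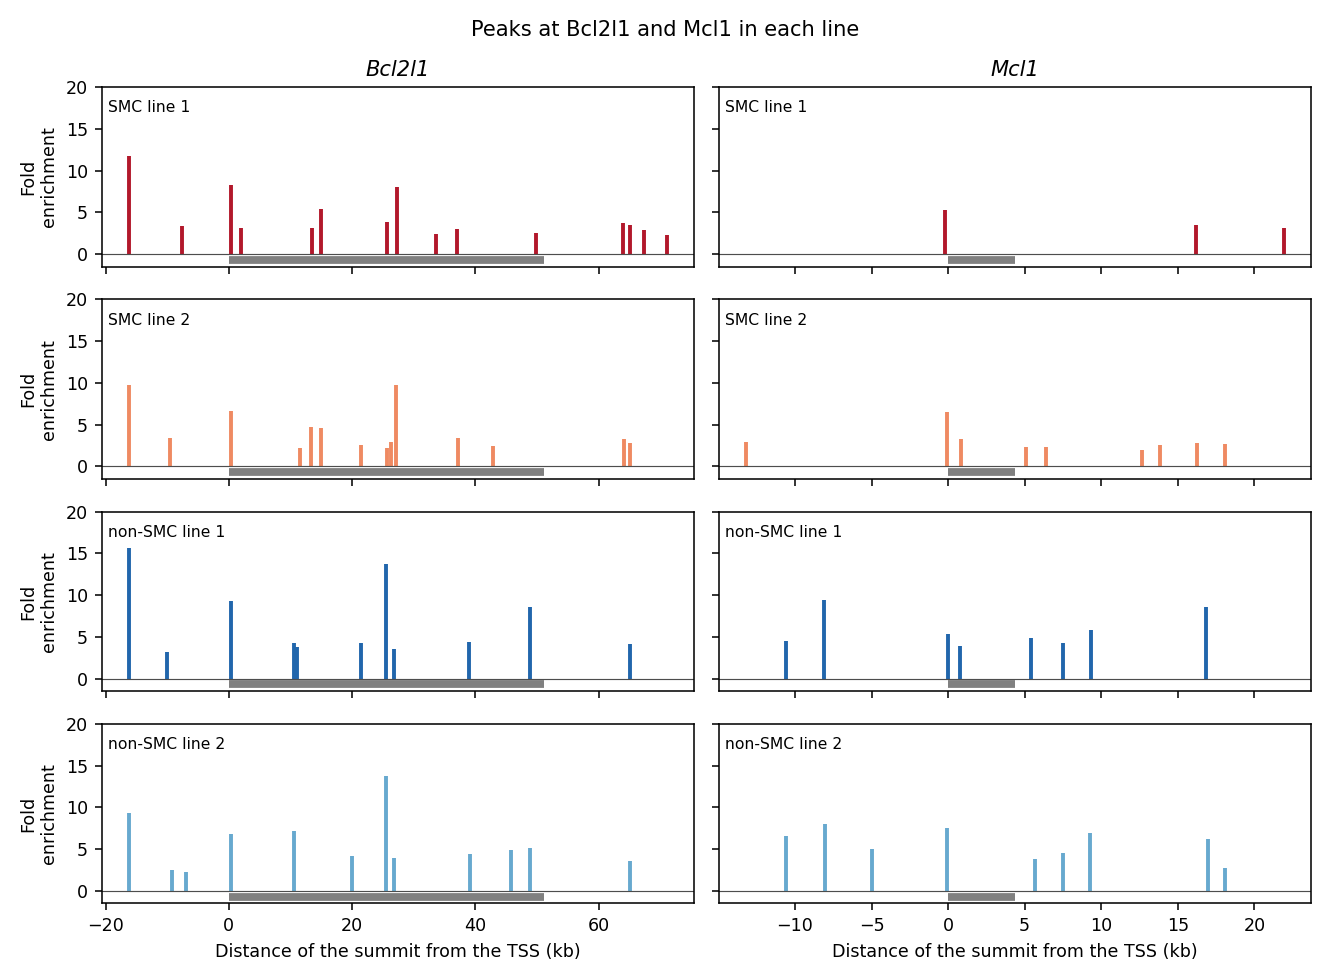
Fold enrichment of each peak (bars, linear y axis) by distance of its summit from the TSS in kb at *Bcl2l1* (left) and *Mcl1* (right) in the 4 lines, with the gene body as a grey bar. Between 25520 and 27169 bp into *Bcl2l1* the taller bar changes place between the types.

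The local background at *Bcl2l1* stood apart in SMC line 1. Its median over the peaks of the window was 7.89 times the genome background of that library, against 1.41 for all peaks of chromosome 2. The ratio was 2.08, 1.76 and 2.04 in the remaining lines. At *Bcl2l11*, on the same chromosome, it was 1.40, 1.37, 1.37 and 1.98. Fold enrichment is already a ratio to the local background, but with 1 added to pileup and background, so it is not a plain ratio. The part of this background in the peak counts of *Bcl2l1* was not tested.

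*Bcl2*, the founding guardian, is the longest of the 10 genes at 176 kb (chr1:106538178-106714274, minus strand). It held 6 and 27 peaks in the SMC lines against 15 and 14 in the non-SMC lines, so the SMC lines enclosed both non-SMC lines. Of 47 regions, 6 were non-SMC-only, none SMC-only and 37 in a single line. Without SMC line 1, however, 23 regions counted as SMC-only against 6 as non-SMC-only, the most SMC-only regions of any of the 10 genes in that setting. There an SMC-only region needs a peak in only 1 line and a non-SMC-only region in 2. With all lines, *Bcl2* had 2.78 non-SMC-only regions per 100 kb, above 83.0% of gene windows, and its count of 6 was above 96.5%. The strongest, chr1:106700622-106700960, lay in an intron 13557 bp downstream of the TSS, with fold enrichments of 5.63 and 6.37 in the non-SMC lines, and 1 of the 6 was strong in both. The next were intron regions at chr1:106547155-106547761, 166674 bp downstream, with 5.04 and 5.14, and at chr1:106619932-106620834, 94124 bp downstream, with 4.83 and 3.66. The highest *Bcl2* peak of any line, named after its value was seen, was an intron peak of SMC line 2 at 127201 bp downstream, with a fold enrichment of 9.90 at percentile 97.4. Non-SMC line 2 listed a peak of 5.17 there, and the other two lines listed none. The promoter peak of *Bcl2* was weak in SMC line 1, with a fold enrichment of 2.86 at percentile 28.0. It was 4.32, 6.05 and 4.76 in the other lines, at percentiles 79.4, 74.2 and 75.1.

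The effector *Bak1* (chr17:27019810-27029009, minus strand) held 6 peaks in each SMC line and 7 in each non-SMC line, and *Pmaip1* also had fewer in both SMC lines, which makes 2 of the 10 genes beside 13.6% of all windows. The non-SMC-only region of *Bak1* at chr17:27038077-27038957, 9465 bp upstream of the TSS, had the highest mean percentile of all 26. Fold enrichment there was 9.83 and 8.13 in non-SMC lines 1 and 2, at percentiles 89.6 and 91.9, and its centre is the sequence with 3 AP-1 motifs shown above. The 1 SMC-only region of *Bak1*, 24668 bp downstream in introns of *Ggnbp1* and *Zbtb9*, had only 2.85 and 3.08. The *Bak1* promoter peak was moderate in all lines, with fold enrichments of 3.75, 4.19, 4.92 and 4.69 at percentiles 62.0, 78.6, 65.9 and 74.6.

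*Bax* (chr7:45461697-45466898, minus strand) held 3, 8, 5 and 9 peaks, and the types overlapped. Its promoter had no peak in line 1 of either type. In SMC line 2 the highest promoter peak, 584 bp upstream of the TSS, had a fold enrichment of 5.13 at percentile 86.1. In non-SMC line 2 it lay elsewhere, 1170 bp downstream, with 2.47 at percentile 21.4. Of 17 regions, 2 were non-SMC-only and none SMC-only. They lay 5898 bp (chr7:45460821-45461344) and 9657 bp (chr7:45456745-45457609) downstream of the *Bax* TSS, with fold enrichments of 8.11 and 6.35, and of 3.60 and 4.80. Both were within 3 kb of the TSS of *Ftl1*, which encodes ferritin light chain, as was the 1 *Bax* region open in all lines. Without regions near the TSS of another gene, *Bax* therefore had no region of either pattern, and the total over the 10 genes was 24 non-SMC-only and 10 SMC-only.

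Among the BH3-only genes, *Pmaip1* had no peak at all in SMC line 1. The gene lies at chr18:66458533-66465565 on the plus strand, and its window held 0 and 4 peaks in the SMC lines and 5 and 6 in the non-SMC lines, and the types did not overlap. Strong peaks numbered 0, 0, 2 and 1. Of 11 regions, 3 were non-SMC-only and none was SMC-only or open in all lines. At 6.38 per 100 kb, *Pmaip1* was above 97.6% of gene windows and second to *Mcl1* within the family. By count, its 3 regions were more than in 85.7% of gene windows. With the gene body alone the count was 0, and with 5 kb on each side it was 1. The strongest region, chr18:66453176-66453729, lay 5138 bp upstream of the TSS with fold enrichments of 14.8 and 5.95 in non-SMC lines 1 and 2, at percentiles 98.0 and 83.3. The other two lay 14636 bp downstream (chr18:66472738-66473323), with 7.24 and 3.96, and 19454 bp upstream (chr18:66439008-66439156), with 4.43 and 4.27. A small peak over the TSS was listed in SMC line 2, with a fold enrichment of 3.15, and in non-SMC line 2, with 2.96.

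*Bid*, whose protein links death receptors to mitochondria, held 5, 12, 12 and 5 peaks (chr6:120891930-120916853, minus strand), and each type had the same mean of 8.5 ± 4.95. Strong peaks numbered 1, 1, 5 and 4. The difference lay beside a shared promoter. The region over the TSS, chr6:120916390-120917294, was open in all 4 lines with fold enrichments of 6.17, 7.22, 6.54 and 9.31. A non-SMC-only region, chr6:120915318-120916069, lay 1247 bp downstream in an intron, within the same promoter window, with 10.2 and 6.50 in non-SMC lines 1 and 2 at percentiles 90.6 and 86.1. A weaker non-SMC-only region lay 13234 bp downstream in an intron (chr6:120903345-120903745), with 4.53 and 4.22. *Bid* had no SMC-only region among 23.

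*Bcl2l11*, which encodes BIM (chr2:128126038-128162547, plus strand), held 6, 14, 9 and 10 peaks, of which 1, 3, 6 and 4 were strong. It had 3 SMC-only and 2 non-SMC-only regions among 24. The SMC-only count fell to 0 at either stricter threshold on q, with lists of equal length and after scaling, where 1 or 2 non-SMC-only regions were left, so the order turned. The strongest were non-SMC-only, 53329 bp downstream of the TSS (chr2:128179085-128179613) with fold enrichments of 4.94 and 5.92, and 2048 bp downstream in an intron (chr2:128127887-128128171) with 4.40 and 3.91. The strongest of the SMC-only regions lay 46396 bp downstream (chr2:128172198-128172609) with 5.94 in SMC line 1 and 2.72 in SMC line 2, and none of the 3 was strong in both SMC lines. Its promoter was open in all lines, with fold enrichments of the highest peak of 5.19, 6.02, 7.28 and 8.27. That peak lay 14 bp and 166 bp upstream of the TSS in the SMC lines and 1396 bp and 1419 bp downstream in the non-SMC lines.

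*Bbc3*, which encodes PUMA (chr7:16308393-16318205, plus strand), held 11 peaks in each SMC line and 7 and 9 in the non-SMC lines, so there were more in SMC. Strong peaks ran the other way, with 0, 3, 4 and 4. It had 1 region of each pattern among 15, both in introns within its promoter window. The SMC-only region, 1782 bp downstream of the TSS (chr7:16309870-16310276), had fold enrichments of 4.33 and 2.64. The non-SMC-only region, 2813 bp downstream (chr7:16311145-16311630), had 3.72 and 2.79, and no line had a peak over the TSS. The highest peaks of the window in the non-SMC lines, of 10.3 and 8.39, lay 17975 and 17977 bp downstream in an intron of *Sae1*. SMC line 2 listed a peak of 2.90 in the same merged region, with its summit at 18482 bp and not at that place.

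*Bad*, whose protein is inactivated by survival kinases (chr19:6941861-6951899, plus strand), held 5, 8, 8 and 7 peaks and the fewest type-specific regions. Of 16 regions, 3 were open in all lines, none was SMC-only, and the 1 non-SMC-only region (chr19:6952038-6952644, 10351 bp downstream) had fold enrichments of only 2.44 and 3.11. The promoter was open in every line, with 3.23 and 4.06 in the SMC lines and 8.68 and 5.03 in the non-SMC lines. Its percentile was 40.0 in SMC line 1 and between 77.8 and 86.0 in the others.

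Within the windows of the 10 genes, the type-specific regions differed in strength and place. The mean percentile of a region in the lines that have it had a median of 72.9 (range 11.5 to 90.7) over the 26 non-SMC-only regions and of 48.3 (22.5 to 82.7) over the 10 SMC-only regions. This measure is not independent of the pattern, since a weak peak is more easily missed in one line. Only 4 non-SMC-only and 1 SMC-only region lay in the promoter of their own gene, whereas 8 of the 20 regions open in all lines did. Away from every TSS lay 20 of 26 non-SMC-only, 9 of 10 SMC-only and 9 of 20 shared regions. The annotation put 12 non-SMC-only regions in introns and 14 in intergenic sequence. These medians and positions were not computed over all regions of each pattern, so they do not tell the family from other genes.

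An AP-1 motif lay within 100 bp of the summit in 10 of 26 non-SMC-only regions (38.5%), against 46.8% of all 26224 non-SMC-only regions of the genome. The AP-1 regions were spread over 7 genes, *Bcl2*, *Bcl2l1*, *Mcl1*, *Bcl2l11*, *Bax*, *Bak1* and *Pmaip1*. It was found in 1 of 10 SMC-only regions (4.19% of those of the genome) and in 2 of the 20 open in all lines (10.0% of those of the genome). The TEAD motif was found in 6 non-SMC-only regions (23.1%, genome 19.3%), RUNX in 8 (30.8%, genome 31.6%), SOX in 6 (23.1%, genome 27.5%) and the E-box in 3 (11.5%, genome 14.1%). Among the 10 SMC-only regions, 2 held a SOX motif (genome 40.5%) and 2 an E-box (genome 21.1%). The p53 element was found in none of the 216 regions and in 0.0551% of all regions, and the NFI palindrome in none and in 0.0576%. Both were searched as full consensus sequences with no mismatch allowed, and were met in only 197 and 206 of 357570 regions. None among 216 regions therefore does not show that p53 or NFI sites are absent from these windows.

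More windows held more non-SMC-only than SMC-only regions (37.6% of all genes) than the opposite (18.3%), and counts for the rest of the pathway are read beside this. Of 9 other BCL2 family genes, 7 had a non-SMC-only and 3 an SMC-only region, against 50.9% and 37.6% of all windows, with 17 and 4 such regions in all. The median was 2 non-SMC-only regions per gene, as in the 10 genes described, against 1 over all protein-coding genes. *Hrk*, a BH3-only gene of neurons, had 6 non-SMC-only regions and no promoter peak in any line, and was named after its values were seen. The 3 *Bcl2a1* copies are nearly identical, so reads there cannot be placed with certainty. Of 12 other apoptosis genes, such as caspases and their inhibitors, 10 had a non-SMC-only and 4 an SMC-only region, against the same 50.9% and 37.6%. They held 18 and 5 such regions in all. Of the 12 promoters, 10 were open in all lines, against 48.7% of all promoters. *Birc3*, an inhibitor of apoptosis, had a non-SMC-only promoter, as did 2.45% of all genes, with percentiles of 63.4 and 90.9 in non-SMC lines 1 and 2.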

How the data were processed

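ATAC-seq peak lists of 4 mouse libraries were analyzed. Per the labels and the methods, the authors mapped reads to mm10 with Bowtie2 2.3.4, removed duplicates with sambamba and called peaks in each library separately with MACS2 2.1.1. The MACS2 settings and whether reads were shifted are not given in the sources used here. Lines that share a number are called paired in the labels.

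The authors deposited for each peak a score, which was not used, the fold enrichment at the summit (a ratio to the local background), the p-value and the q-value on the -log10 scale, and the summit position. Depth affects all of these within each library. Fold enrichments are therefore given as deposited for each line, with percentiles of its list for the main peaks, and counts above a q threshold are not corrected for depth. Only peaks on the autosomes and on X and Y were kept. The lists reach a p-value of about 0.01, and between 42.8% and 72.2% of peaks had a q below 0.05.

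Genes are from GENCODE M21 with the 5′ end as the TSS. Regions are the 4 lists merged on an overlap of at least 1 base. Pileup and background were recovered from fold enrichment and p, with 1 added to both, for all but 3 to 5 peaks per library, and the lowest background of a library was taken as its genome background. The recovery was tested on 19543 simulated peaks, of which 100% came back within 1%, and overlaps were checked against bedtools on 21938 windows with no difference. No interval or floor was computed since the read counts were not used here.

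The genes, lists and motifs were chosen with earlier results of these data known. All 10 genes are described, with at most 3 SMC-only or non-SMC-only regions each by mean percentile, and other pathway genes were named where their promoter had either pattern. Some items that the rule selects are not reported here. Alternatives were thresholds on q, equal list lengths, scaling to one background, other windows and overlaps, neighbouring genes left out, each library left out and line pairs. The analysis ran in Python 3.11.15 with pandas 2.3.3, numpy 2.4.6, and scipy 1.17.1, and used samtools 1.23.1, bedtools 2.31.1, and matplotlib 3.10.9.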

Additional observations from a re-analysis of the deposited data

Results flagged for a closer look

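The sign of SMC minus non-SMC differed between the line pairs in the total of peaks and in 4 of the 10 genes, and these differences between pairs were not tested. For the total, the difference was -27 in pair 1 and 25 in pair 2, which are 52 apart. For *Bcl2* it was -9 and 13, 22 apart. For *Bid* it was -7 and 7, 14 apart. For *Bcl2l11* it was -3 and 4, 7 apart, and for *Bad* -3 and 1, 4 apart. SMC line 1 had the shortest list of the 4 and SMC line 2 the longest, and their part in these signs was not tested.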

How the results depend on the processing

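The count of SMC-only regions was the least stable value. From 10 it went to 2 at a -log10 q of at least 5, 3 at a -log10 q of at least 2, 5 after scaling every library to the background of SMC line 1, 6 with the gene body alone and 6 with 5 kb on each side. Within line pair 1 it was 36 and within pair 2 it was 78, and leaving out 1 library gave 11 to 72, the highest without SMC line 1, and 34 without SMC line 2. The count of 26 non-SMC-only regions went to 12 with the gene body alone, 63 in pair 1 and 54 in pair 2, and leaving out 1 library gave 26 to 54, with 54 without non-SMC line 1 and 53 without non-SMC line 2. Fewer lines per type make either pattern easier to meet. Non-SMC-only regions outnumbered SMC-only ones in 12 of 15 alternatives, and the reverse held without SMC line 1, without SMC line 2 and in pair 2. The difference in peaks of -1 went to -29 at a -log10 q of at least 2 and ranged from -27.5 to 25.5 with 1 library left out. The difference in genes with a promoter peak of 0 went to -1.5 at a -log10 q of at least 2 and ranged from -1 to 1 with 1 library left out. The causes were not tested.

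The non-SMC-only share of regions in the BCL2 family windows was above that of all gene windows at a -log10 q of at least 5 (18 of 55, 32.7%, against 19.7%), after scaling (26 of 123, 21.1%, against 12.2%) and with lists cut to equal length (27 of 172, 15.7%, against 9.46%). The SMC-only share was 3.64%, 4.07% and 4.07% against 5.58%, 6.03% and 5.41%, so its order against all windows turned from that of the full lists. With a replicate block on the line pairs, the values were 10 SMC-only and 26 non-SMC-only regions and differences of -1 and 0. These equal the unpaired values by construction, so the block says nothing about whether pairing matters. The labels call the lines paired, but 2 pairs do not allow a check of it.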
